A study of Parhyale hawaiensis with 42 samples.

Results

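The mature microRNAs of *Parhyale hawaiensis* embryos, an amphipod crustacean, were compared between the last pair of time-points of embryogenesis, stages 21 to 23 (S21–23) and stages 24 to 30 (S24–30). The comparison rests on 8 small RNA libraries of the 28 in the study, 4 for each time-point, and on all 349 mature microRNAs that were quantified in them. All libraries came from whole embryos of the wild type laboratory strain, which were staged by hand and pooled. No other treatment or genotype was involved, and both time-points are wide windows in which limbs and organs take shape. In such whole-embryo RNA, fewer cells of a type and less microRNA per cell cannot be told apart. Neither the labels nor the methods say whether replicates came from separate broods, so p-values measure the spread between these libraries, which may be technical.

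A microRNA is a short RNA that guides an Argonaute protein to partly complementary sites in messenger RNAs, which are then repressed or degraded. It is cut from a hairpin precursor whose arms can each give a mature sequence, named 5p and 3p after their position. Many microRNAs belong to a tissue, such as miR-1 to muscle and miR-124 to neurons, so that the set present in an embryo shifts as its tissues form.

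The 349 mature microRNAs came from 175 precursors on 79 contigs of the Phaw 5.0 assembly. Their lengths ran from 18 to 28 bases, with a median of 22. A family name was given to 87 precursors, called previously annotated here, while 88 had only a contig and locus as their name and are called newly annotated. The quantification gives a contig and a locus number for each precursor, without start, end or strand, and every microRNA is identified by its locus number below. Where several loci give near-identical mature sequences, reads were divided between them. This concerned 52 mature sequences in 20 groups of near-equal counts, for which values of single loci are uncertain. Sums are given for some of them, while others, such as loci 38470 3p and 38476 3p, are given as single loci. Fits on summed loci were scaled on their own, so their fold changes are not on the same scale as those of single loci.

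Between 206914 and 511483 counts fell on mature microRNAs in the S21–23 libraries (median 367026.5), and between 473805 and 865810 in those of S24–30 (median 630745). In these libraries, 228 to 272 mature microRNAs had at least 1 count at S21–23 and 266 to 276 at S24–30. A mean of at least 10 normalized counts, the level taken as expressed, was reached by 174 mature microRNAs at S21–23 and by 176 at S24–30, and 157 of them were shared. Counts were normalized with size factors over all 28 libraries, so values are comparable between libraries. A count of 0 in 1 library allows up to 3 counts, which is between 1.05 and 3.15 normalized counts at S21–23 and between 0.885 and 1.3 at S24–30, for counting error only.

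Replicate 1 of each time-point stood apart from its group. For each microRNA, a position was computed on the log2 scale, with 0 at the mean of S21–23 replicates 2 to 4 and 1 at the mean of S24–30 replicates 2 to 4. Over the 49 microRNAs called between those 6 libraries, the median position was 0.53 for S21–23 replicate 1 and 0.67 for S24–30 replicate 1. The other 6 libraries lie near 0 or 1 by construction and are no contrast. Each replicate 1 library lay between 0 and 1 for 48 of the 49 microRNAs. The position of S21–23 replicate 1 was 0.65 over the 24 microRNAs that were higher at S24–30 and 0.47 over the 25 that were lower. For S24–30 replicate 1 these medians were 0.84 and 0.54. The first principal component of the 8 libraries held 77.3% of the variance, with scores of -19.48 to -18.46 for S21–23 replicates 2 to 4, 2.78 for S21–23 replicate 1, 7.17 for S24–30 replicate 1 and 14.99 to 16.1 for the rest. The labels give no stage within these windows, the cause was not tested, and results are given with and without these libraries.

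**Figure D1:**
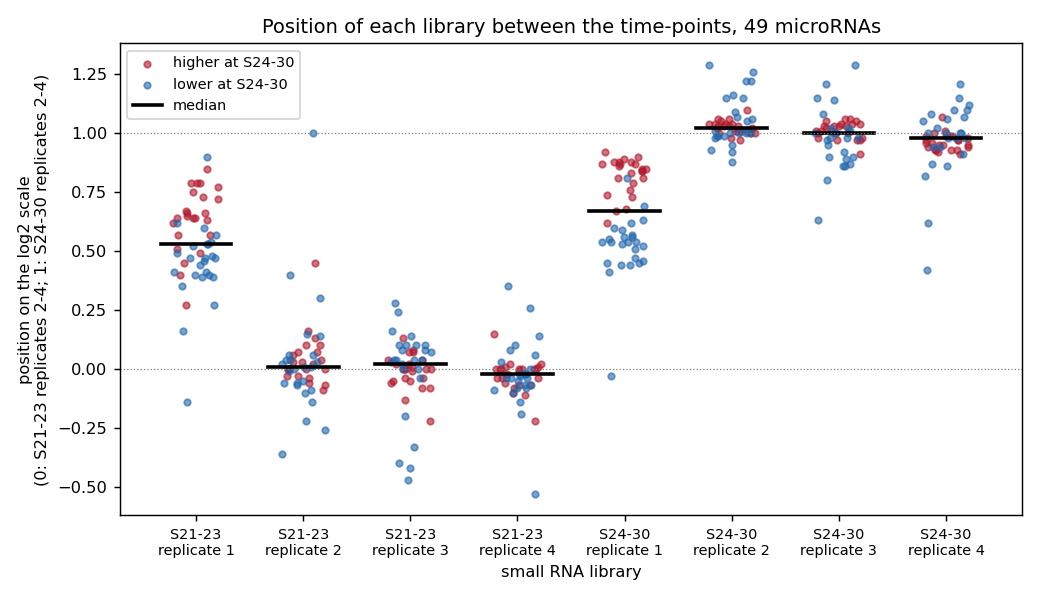
Position of each of the 8 libraries (x axis) on the log2 scale between S21–23 replicates 2 to 4 (0) and S24–30 replicates 2 to 4 (1) for the 49 microRNAs called between those 6 libraries. Each point is 1 microRNA, red if higher and blue if lower at S24–30, and black lines are medians. The replicate 1 libraries have medians of 0.53 and 0.67, and the other libraries define 0 and 1.

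Between S21–23 and S24–30, let-7c-5p, miR-7-5p, miR-12-5p, miR-34-5p and 3 mature sequences of the miR-87 family rose. miR-92 with locus 34112 on its contig, miR-9-3p of locus 36129 and 9 further arms of newly annotated precursors fell. The test was edgeR's quasi-likelihood test in a model of all 7 time-points. A microRNA was called when its log2 fold change was 1.5 or more up or down and its adjusted p did not exceed 0.001. Of 234 microRNAs tested, 7 were called higher (2.99%) and 15 lower (6.41%) at S24–30, together 9.4%. The calls rest on the spread estimated over all 28 libraries: edgeR's quasi-likelihood test of the 8 libraries alone called 0 higher and 0 lower (smallest adjusted p 0.00777), with 138 at an unadjusted p under 0.05. Without both replicate 1 libraries, 24 were called higher (10.3%) and 25 lower (10.7%), and these included all 7 and all 15. The counts depended on single libraries. Without S21–23 replicate 1 there were 24 higher and 22 lower calls, without S24–30 replicate 1 there were 10 and 20. Leaving out S21–23 replicate 2, 3 or 4 left 3 higher calls each time and 9, 10 and 11 lower calls. Leaving out S24–30 replicate 2, 3 or 4 left 3, 5 and 4 higher calls and 7, 8 and 8 lower calls. At an adjusted p of at most 0.05 with no minimum fold, 37 microRNAs were higher (15.8%) and 56 lower (23.9%), together 39.7%, by the same test of edgeR. The 4 libraries of S24–30 all lay above the 4 of S21–23 for 77 of the tested microRNAs (32.9%) and all below for 36 (15.4%). This was by normalized counts, whose scaling differs from that of edgeR's test. The median log2 fold change of all tested microRNAs was 0.

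**Figure D2:**
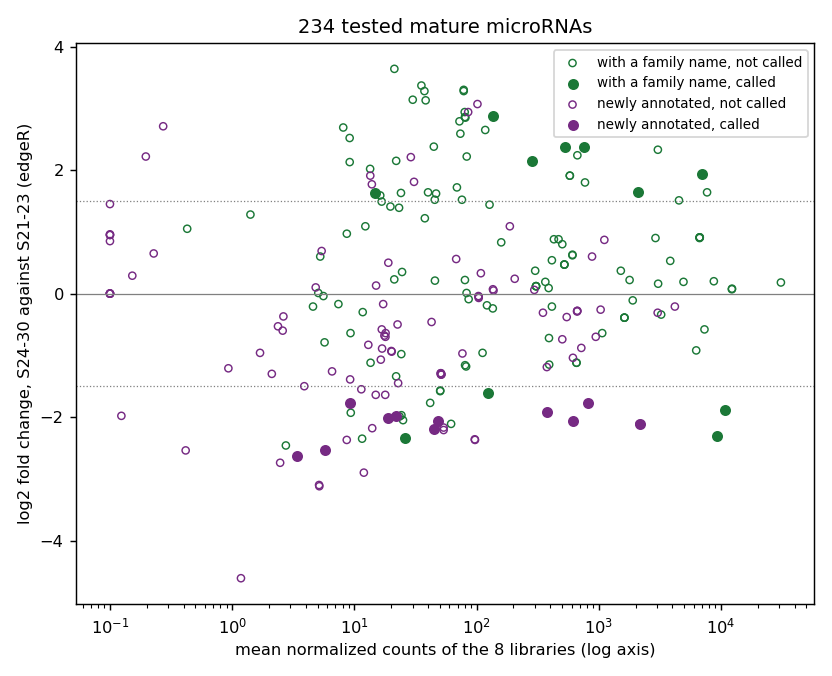
Log2 fold change from S21–23 to S24–30 (y axis, edgeR) against the mean normalized counts of the 8 libraries (x axis, logarithmic, means under 0.1 drawn at 0.1) for the 234 tested mature microRNAs. Green circles are previously annotated and purple circles newly annotated, filled where called. All 7 filled circles above the dotted line at 1.5 are previously annotated, and 11 of the 15 below -1.5 are newly annotated.

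The let-7 complex of insects, let-7 with miR-100 and miR-125, times the change from juvenile to adult in *Drosophila*. In *Parhyale* its members lie on contig LQNS02277998.1, and Dpu-Mir-10-P2 and Dpu-Mir-10-P3, named after *Daphnia pulex* matches, stand for miR-100 and miR-125. Locus 30986 of let-7c-5p had 84.2, 11.5, 8.97 and 7.29 normalized counts in S21–23 replicates 1 to 4 and 168, 266, 313 and 237 in S24–30 replicates 1 to 4. The time-points did not overlap, and S21–23 replicate 1 was the highest and S24–30 replicate 1 the lowest of its group. By edgeR's quasi-likelihood test let-7c-5p rose by a log2 fold change of 2.87 (SE 0.58, adjusted p = 0.000621), and without both replicate 1 libraries by 4.74 (SE 0.45, adjusted p = 7.67e-09). Its 3p arm had 0 normalized counts in all 8 libraries. The mean of let-7c-5p had been 216 at S1–4 and 21.5 at S17, against 246 ± 60.8 (SD, n = 4) at S24–30.

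The other members of the complex were not called. Dpu-Mir-10-P2-5p had 180, 60.8, 107 and 71.8 normalized counts at S21–23 and 196, 204, 262 and 189 at S24–30, all above those of S21–23. Its log2 fold change was 0.83 (SE 0.35, adjusted p = 0.0662 by edgeR) and 1.27 without both replicate 1 libraries. Dpu-Mir-10-P3-5p stayed below 3 normalized counts in every one of the 8 libraries. Of the 5 tested arms of the complex 1 was called higher, against 2.99% of all tested microRNAs, and their median log2 fold change was 1.05, against 0. The same arm alone was called without both replicate 1 libraries, and the median was then 2.01. With all libraries, the median of 1.05 was the value of Dpu-Mir-10-P3-3p. That arm had means of only 0.175 normalized counts at S21–23 and 0.682 at S24–30.

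The miR-87 family, which takes part in the regrowth of dendrites in *Drosophila* neurons, had 3 called members, all on contig LQNS02278080.1. The loci 32998 and 33002 of miR-87-3p together had 924, 192, 193 and 155 normalized counts at S21–23 and 1668, 2458, 2583 and 2076 at S24–30. The groups did not overlap, and S21–23 replicate 1 lay between the other S21–23 libraries and those of S24–30. The summed miR-87-3p rose by a log2 fold change of 2.20 (SE 0.38, adjusted p = 0.000127 by edgeR on summed loci), and by 3.33 without both replicate 1 libraries. Dpu-Mir-87-o2 is on the same contig, and its locus number, 33000, is between theirs. Its 3p arm had 201, 51.4, 63.4 and 60.9 normalized counts at S21–23 and 353, 579.8, 491 and 472 at S24–30. It rose as well (log2 fold change 2.14, SE 0.46, adjusted p = 0.000893 by edgeR, and 2.99 without both replicate 1 libraries). All 6 tested arms of the contig had log2 fold changes above 0, from 1.22 to 2.38. Of all 234 tested microRNAs 115 were above 0, and the 5p arms of this contig were not called.

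miR-7, which in *Drosophila* supports the differentiation of photoreceptors and keeps gene networks stable, was the most abundant microRNA among those called higher. At locus 1858, miR-7-5p had 4915, 2139, 1704 and 1805 normalized counts at S21–23 and 7492, 13336, 13938 and 10852 at S24–30. The groups were separate, and again both replicate 1 libraries were nearest to the other time-point. It rose by a log2 fold change of 1.94 (SE 0.28, adjusted p = 9.65e-06 by edgeR), or 2.62 without both libraries (SE 0.2, adjusted p = 2.72e-10). Its share of all microRNA counts was 1.35% ± 0.928 (SD, n = 4) at S21–23 and 4.77% ± 0.811 at S24–30.

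miR-12 belongs to a cluster with miR-283 and miR-304 in *Drosophila*. At locus 29773, miR-12-5p had 1561, 744, 701 and 705 normalized counts at S21–23 and 2382, 3725, 3726 and 3121 at S24–30. S21–23 replicates 2 to 4 were nearly equal, and replicate 1 lay between them and the S24–30 libraries. It rose by a log2 fold change of 1.65 (SE 0.3, adjusted p = 0.000228 by edgeR), and by 2.16 without both replicate 1 libraries. In the fit with same-name loci summed, its log2 fold change was 1.46 with all libraries, below the minimum fold.

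miR-34, miR-277 and miR-317 form a cluster, here on contig LQNS02000228.1. In *Drosophila*, miR-34 acts in the ageing brain and miR-277 on the breakdown of branched-chain amino acids. miR-34-5p had 8.77, 5.24, 5.13 and 7.29 normalized counts at S21–23 and 14.8, 26.2, 22.7 and 28.5 at S24–30. These were low levels, close to a few times the counting limit, yet the groups did not overlap. miR-34-5p rose by 1.63 (log2, SE 0.32, adjusted p = 0.000407 by edgeR), or by 1.95 without both replicate 1 libraries. In the fit with same-name loci summed, its log2 fold change was 1.42 with all libraries, below the minimum fold. miR-277-3p had 97.5, 6.29, 1.92 and 3.64 normalized counts at S21–23 and 135, 265, 244 and 186 at S24–30. The fitted log2 fold change of 2.65 (SE 0.93) had an adjusted p of 0.0247 in edgeR's test and was not called. Without both replicate 1 libraries, the log2 fold change was 5.79 (adjusted p = 1.35e-05 by edgeR) and passed. On the same contig, miR-317-3p had a log2 fold change of 1.41 (adjusted p = 0.0398 by edgeR). The share of this cluster was 0.0698% in S21–23 replicate 1, 0.00748% to 0.00891% in S21–23 replicates 2 to 4, and 0.0851% to 0.129% at S24–30.

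**Figure D3:**
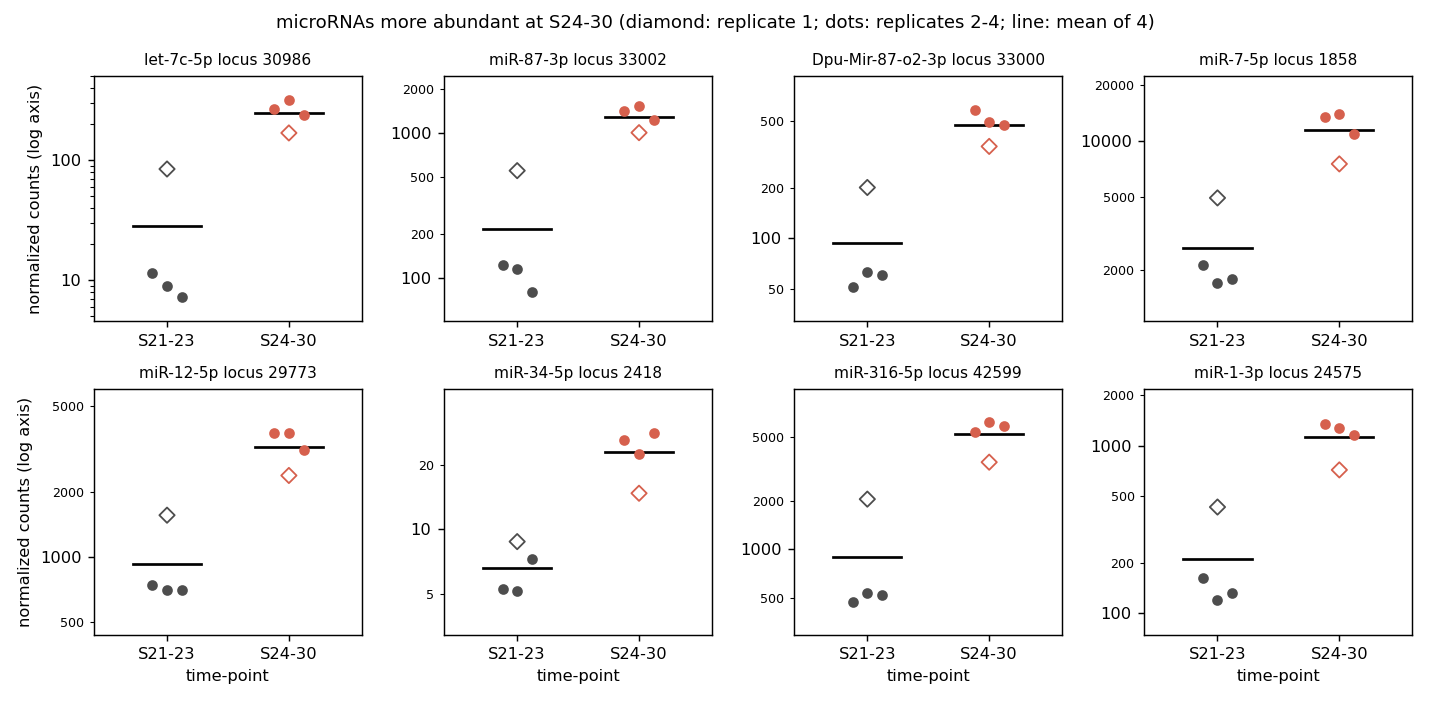
Normalized counts (y axes, logarithmic) of 8 microRNAs in the 4 libraries of S21–23 (grey) and of S24–30 (red), with diamonds for replicate 1, dots for replicates 2 to 4 and lines for means. miR-316-5p and miR-1-3p were not called with all libraries and the other 6 were. In all panels the groups are separate, and each S21–23 diamond lies above its dots and each S24–30 diamond below them.

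The 3 tested muscle arms were higher in every S24–30 library than in any S21–23 library, as were 77 of all 234 tested microRNAs (32.9%). Those of miR-133-3p are near-equal copies, and none of the 3 arms was called with all libraries. One of them, miR-1-3p, was among the 37 higher at an adjusted p of at most 0.05 by edgeR. miR-1-3p, the muscle microRNA of animals from flies to mammals, had 430.4, 163, 119.8 and 133 normalized counts at S21–23 and 716, 1352, 1279.9 and 1148 at S24–30. Its log2 fold change was 2.24 (SE 0.66, adjusted p = 0.00862 by edgeR) and 3.06 without both replicate 1 libraries (adjusted p = 0.00161), which was not called either. The 2 loci of miR-133-3p, a partner of miR-1 in muscle, together had 121, 0, 5.13 and 5.2 normalized counts at S21–23 and 178, 304, 285 and 269.8 at S24–30. For the sum, the log2 fold change was 2.53 (SE 1.04, adjusted p = 0.053 by edgeR), and it was 5.80 and called without both replicate 1 libraries (adjusted p = 0.000101). Muscle microRNAs made up 0.309% of counts in S21–23 replicate 1, 0.0634% to 0.0759% in the other S21–23 libraries and 0.436% to 0.656% at S24–30.

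Other microRNAs had the same form, a level in S21–23 replicate 1 far above that of replicates 2 to 4, and passed only without the replicate 1 libraries. miR-316-5p had 2050.1, 474, 540.1 and 518 normalized counts at S21–23 and 3475, 5326, 6151 and 5797 at S24–30. The fitted log2 fold change was 2.33 (SE 0.51) with an adjusted p of 0.00109 in edgeR's test, just outside the threshold, and 3.33 without both libraries. miR-315-5p, an activator of Wingless signalling in *Drosophila*, had 3418, 1830.2, 1638 and 1825 normalized counts against 4684, 7917, 7969 and 6929. Its log2 fold change of 1.51 (SE 0.34, adjusted p = 0.00113 by edgeR) became 1.97 without both libraries and was then called.

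miR-276-3p, which acts in olfactory memory in *Drosophila*, was the fourth most abundant mature sequence at S24–30. It had 6085, 2321, 2829 and 2402 normalized counts at S21–23 and 10217, 12759.8, 13058 and 11815 at S24–30. The groups were separate, but the log2 fold change of 1.64 (SE 0.53) had an adjusted p of 0.017 in edgeR's test and was not called, nor was the 2.16 found without both libraries (adjusted p = 0.00296 by edgeR). Together miR-276 and miR-315 took 2.85% ± 1.64 (SD, n = 4) of counts at S21–23 and 7.96% ± 0.475 at S24–30.

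Several microRNAs were close to the counting limit in S21–23 replicates 2 to 4. The 3 loci of miR-981-3p together had 142, 6.29, 8.97 and 4.68 normalized counts at S21–23 and 251, 569, 506 and 414 at S24–30. For this sum, the log2 fold change was 2.96 (adjusted p = 0.0132 by edgeR) with all libraries and 5.80 (adjusted p = 1.62e-05) without both replicate 1 libraries. Dpu-Mir-210-3p, whose vertebrate relative responds to low oxygen, had 9.47 normalized counts in S21–23 replicate 1, 0 in replicates 2 to 4, and 25.6, 50.7, 41.6 and 42.6 at S24–30. miR-124-3p, the best known microRNA of neurons, had 34, 5.24, 6.41 and 4.16 normalized counts against 42.1, 104, 86.7 and 74. The fitted log2 fold change was 2.38 (SE 0.8, adjusted p = 0.02 by edgeR) and 3.91 without both libraries (adjusted p = 0.00063), where it was called. In these microRNAs S21–23 replicate 1 was several times above its group while S24–30 replicate 1 was the lowest of its own.

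Of the 24 microRNAs called higher without the replicate 1 libraries, 2 were newly annotated. The 3p arm of locus 43702 had 59.6, 4.2, 5.77 and 3.12 normalized counts at S21–23 and 113, 207, 217 and 203 at S24–30. The 5p arm of locus 32154 had 58.2, 4.2, 1.92 and 2.08 against 94.2, 213, 151 and 157. Their means at the 5 earlier time-points ran from 1.91 to 7.14 and from 1.15 to 13.1.

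Among the microRNAs that fell, the miR-92 family had by far the highest levels. Members of this family keep neuroblasts dividing in *Drosophila* and belong to a growth-promoting cluster in vertebrates. In *Parhyale* its 3 precursors lie on contig LQNS02278089.1. Locus 34108 of miR-92-3p had 6925, 16935, 16488 and 20669 normalized counts at S21–23 and 5759, 2432, 2307 and 2516 at S24–30. The groups did not overlap, though the replicate 1 libraries came close to each other. It fell by 2.31 on the log2 scale (SE 0.29, adjusted p = 2.75e-06 by edgeR) and by 3.04 without both of them. Locus 34106 of miR-92-3p, with 9408, 18336, 16682 and 22332 normalized counts against 7800.4, 3737, 3747 and 3952, fell by 1.88 on the log2 scale (SE 0.23, adjusted p = 2.75e-06 by edgeR), or by 2.47 without both libraries.

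Locus 34110 of miR-92-3p did not follow the other loci. It had 1925, 1279.6, 1009.7 and 773 normalized counts at S21–23 and 1588, 628, 670.3 and 654 at S24–30, so S24–30 replicate 1 lay above 3 S21–23 libraries. Its log2 fold change was -0.64 (SE 0.28, adjusted p = 0.0695 by edgeR), and -0.80 without both replicate 1 libraries. Unlike the other miR-92-3p loci, it had its highest S21–23 level in replicate 1. In the 4 S21–23 libraries the summed miR-92-3p had 18257, 36551, 34179 and 43775 normalized counts, and in those of S24–30 15147, 6797, 6724 and 7122. The sum fell by 2.05 on the log2 scale (SE 0.31, adjusted p = 4.14e-05 by edgeR on summed loci) and by 2.86 without both libraries.

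The minor arm of the miR-92 precursors moved in the same direction as the major one. miR-92-5p of locus 34106 had 105, 234, 182 and 217 normalized counts at S21–23 and 109, 38.7, 50.4 and 59.2 at S24–30. Here the replicate 1 libraries overlapped, and it fell by 1.61 on the log2 scale (SE 0.23, adjusted p = 9.65e-06 by edgeR), or by 2.26 without both libraries. Of 5 tested arms of the family 3 were called lower and none higher, against 6.41% lower calls over all tested microRNAs, with a median log2 fold change of -1.88. Without both replicate 1 libraries 4 were called lower, against 10.7%, and none higher. The family took 10.2%, 17%, 17.5% and 19.8% of microRNA counts in S21–23 replicates 1 to 4 and 7.42%, 2.69%, 2.65% and 3.14% in S24–30 replicates 1 to 4. Its mean share was 16.1% ± 4.11 (SD, n = 4) at S21–23 and 3.97% ± 2.31 at S24–30. Without the replicate 1 libraries the means were 18.1% ± 1.53 and 2.83% ± 0.27 (SD, n = 3).

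Both arms of the newly annotated locus 34112, on the same contig as miR-92, fell too. The 3p arm had 309.8, 643, 643 and 776 normalized counts at S21–23 and 262, 137, 119 and 149 at S24–30. It fell by 1.91 on the log2 scale (SE 0.24, adjusted p = 2.75e-06 by edgeR) and by 2.50 without both replicate 1 libraries. Its 5p arm, with means of 34.3 and 9.09, fell by 1.99 (SE 0.43, adjusted p = 0.000997 by edgeR). On this contig, with the miR-92 arms included, 5 of 7 tested arms were called lower, against 6.41% over all tested microRNAs. Without both replicate 1 libraries 6 were called lower, against 10.7%. None of the 7 had a log2 fold change above 0, while 115 of all 234 tested microRNAs did.

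**Figure D4:**
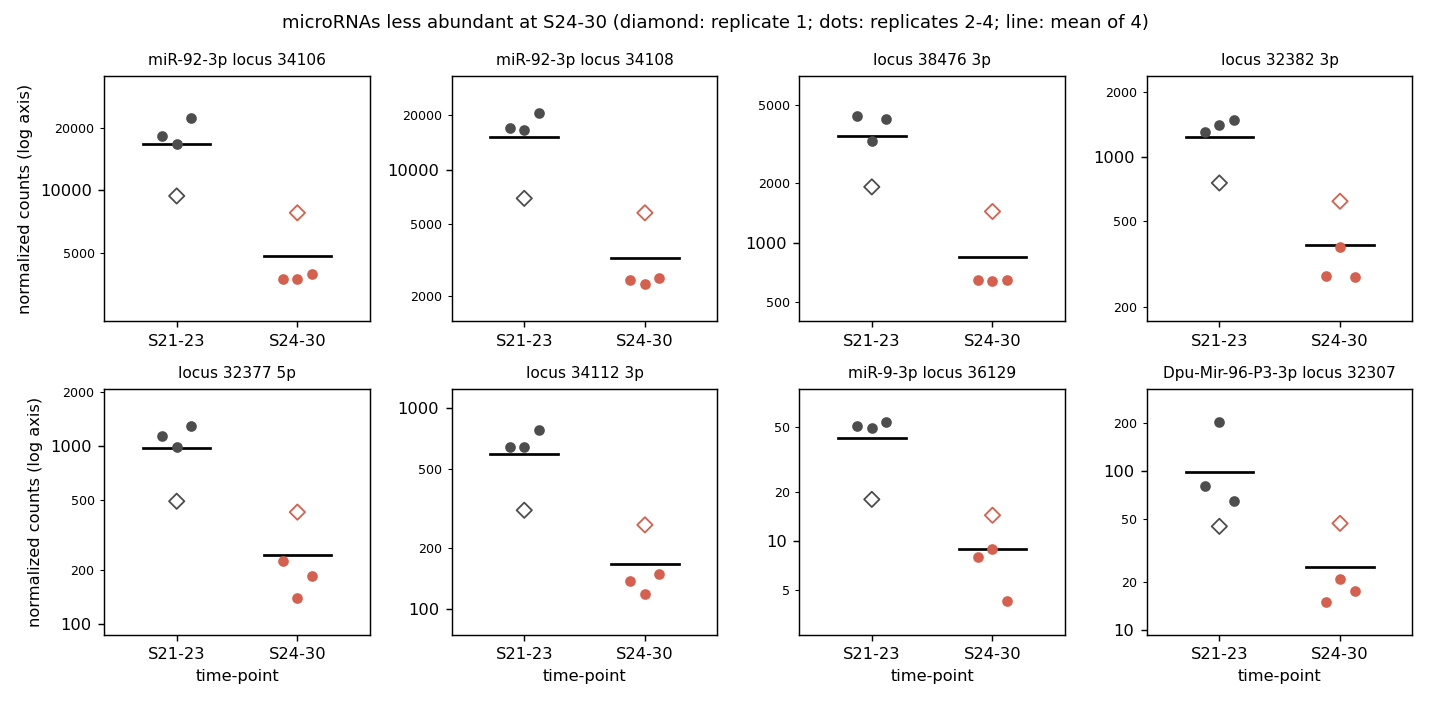
Normalized counts (y axes, logarithmic) of 8 microRNAs in the 4 libraries of S21–23 (grey) and of S24–30 (red), with diamonds for replicate 1, dots for replicates 2 to 4 and lines for means. Dpu-Mir-96-P3-3p was not called with all libraries and the other 7 were. The diamonds of both time-points lie closer together than the dots in all panels, and for Dpu-Mir-96-P3-3p they cross, at 44.9 and 46.9.

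Of the newly annotated microRNAs, 11 of 105 tested were called lower (10.5%) and none higher, while 7 of 129 previously annotated ones were called higher (5.43%) and 4 lower (3.1%). All tested microRNAs had 2.99% higher and 6.41% lower calls. The median log2 fold change was -0.68 over the newly annotated and 0.47 over the previously annotated microRNAs, and without both replicate 1 libraries -0.99 and 0.52. Without these libraries, 17 newly annotated microRNAs were lower and 2 higher, and 8 previously annotated ones were lower and 22 higher. Newly annotated microRNAs took 14.6% ± 1.61 (SD, n = 4) of counts at S21–23 and 8.91% ± 1.3 at S24–30.

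Among newly annotated arms, those on contig LQNS02278075.1 made up 5 of the 11 that fell. This contig carries 14 precursors, 13 newly annotated ones and Dpu-Mir-96-P3. Of its 21 tested arms 5 were called lower and none higher, against 6.41% lower calls over all tested microRNAs. Their median log2 fold change was -2.06. Without both replicate 1 libraries 10 were called lower, against 10.7% over all tested microRNAs, and the median was -2.64. The most abundant was the 3p arm of locus 32382, with 755, 1309, 1399 and 1484 normalized counts at S21–23 and 621, 279, 380.1 and 275 at S24–30. It fell by 1.77 on the log2 scale (SE 0.24, adjusted p = 5.69e-06 by edgeR) and by 2.32 without both libraries. The 5p arm of locus 32377 had 489, 1138, 982 and 1298 normalized counts against 425, 225, 139.8 and 186. It fell by 2.06 (log2, SE 0.27, adjusted p = 4.92e-06 by edgeR), or by 2.75 without both libraries.

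Further arms of this contig were rarer. The 3p arm of locus 32386 had 39.6, 70.3, 154 and 43.7 normalized counts at S21–23 and 36, 16.2, 15.3 and 13 at S24–30, and fell by 2.06 on the log2 scale (adjusted p = 0.000715 by edgeR), or by 2.77 without both replicate 1 libraries. The 5p arm of locus 32324, with 28.8, 94.4, 71.8 and 94.7 against 30, 10.8, 14.5 and 11.6, fell by 2.19 (adjusted p = 2.92e-05 by edgeR), or by 2.96 without both, and its replicate 1 libraries crossed. Locus 32315 5p had means of 5.79 and 0.931 and was called lower with counts near the limit. Dpu-Mir-96-P3-3p, whose relatives act in sensory organs of flies and mammals, had 44.9, 80.8, 204 and 64.5 normalized counts at S21–23 and 46.9, 15, 20.9 and 17.6 at S24–30. The fitted log2 fold change of -2.11 (SE 0.46, adjusted p = 0.00109 by edgeR) just missed the threshold, and without both replicate 1 libraries it was -2.91 and called (adjusted p = 1.15e-05).

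On contig LQNS02278125.1, the 3p arms of loci 38470 and 38476 had near-equal counts, so that reads may have been shared between them. Locus 38476 3p had 1919, 4389, 3293 and 4257 normalized counts at S21–23 and 1439, 647, 638 and 646 at S24–30. It fell by 2.12 on the log2 scale (SE 0.45, adjusted p = 0.000884 by edgeR) and by 2.76 without both replicate 1 libraries, while locus 38470 3p, with nearly the same counts, had -2.11 and an adjusted p of 0.00109 in edgeR's test. The threshold thus separated copies that the counts do not. All 8 tested arms of this contig were below 0, with a median of -2.17, against a median of 0 over all tested microRNAs. The remaining lower calls were the 5p arm of locus 35221, with means of 29.7 and 7.88 normalized counts, and 2 arms with S21–23 means of 9.75 and 14.2 (locus 24325 3p and locus 5109 3p).

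miR-9 keeps sensory organ precursors in check in *Drosophila* and is abundant in the vertebrate brain. miR-9-3p of locus 36129 had 17.9, 50.3, 49.3 and 53.1 normalized counts at S21–23 and 14.3, 7.9, 8.85 and 4.23 at S24–30. It fell by 2.34 on the log2 scale (SE 0.48, adjusted p = 0.000686 by edgeR), and by 2.97 without both replicate 1 libraries. At locus 31740, miR-9-3p had a log2 fold change of -0.64 (adjusted p = 0.56 by edgeR). Summed over 3 loci, miR-9-3p had -1.70 (SE 0.51, adjusted p = 0.00949 by edgeR on summed loci) and was not called. Without both replicate 1 libraries the sum had -2.23 and was called (adjusted p = 0.000537 by edgeR on summed loci). The main arm of locus 36129, miR-9-5p, had 5994, 10703, 8193 and 9295 normalized counts against 5996, 6371, 5995 and 5999. Its log2 fold change was -0.58 (SE 0.13, adjusted p = 0.00113 by edgeR). Summed over its 3 loci, miR-9-5p had means of 31670 ± 6204 and 32073 ± 4922 normalized counts (SD, n = 4). miR-9-5p thus held 15.4% ± 1.72 of counts at S21–23 and 13.5% ± 0.935 at S24–30.

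Other abundant families held no call. miR-10-5p, encoded among the Hox genes of arthropods, had the most counts of any single locus at both time-points, with 27662 and 34111 mean normalized counts and shares of 13.6% ± 1.06 and 14.4% ± 1 (SD, n = 4). Its log2 fold change was 0.18 (SE 0.21, adjusted p = 0.518 by edgeR), and its groups overlapped. The other Hox microRNAs, iab-4-5p and miR-993-3p, had higher levels in all S24–30 libraries. iab-4-5p, which represses Ubx in *Drosophila*, had 41.7, 27.3, 19.2 and 31.7 normalized counts against 69, 151, 113 and 97.9 (log2 fold change 1.72, adjusted p = 0.0839 by edgeR).

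miR-184, which acts in the female germline and early embryo of *Drosophila*, has 4 loci of near-equal counts. Their summed 3p arm had 20027, 18213, 15702 and 16460 normalized counts at S21–23 and 27146, 42057, 38205 and 36029 at S24–30. The groups were separate. The log2 fold change of the sum was 0.71 (SE 0.2, adjusted p = 0.00704 by edgeR on summed loci), below the minimum fold. In the fit of single loci, each locus had 0.90 or 0.91, also below it. The share of the summed 3p arm was 8.73% ± 1.67 (SD, n = 4) at S21–23 and 15.1% ± 1.43 at S24–30 against 14.4% ± 1 for miR-10-5p.

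miR-263a-5p, which protects sensory bristle cells in *Drosophila*, had 6744, 8111, 9682 and 7258 normalized counts at S21–23 and 5820.1, 3921, 5248 and 3324 at S24–30. The fitted log2 fold change was -0.92 (SE 0.28, adjusted p = 0.00991 by edgeR) and -1.16 without both replicate 1 libraries. bantam-3p, which promotes growth and blocks cell death in *Drosophila*, had 342, 508, 524 and 515 normalized counts against 351, 276, 296 and 316, with a log2 fold change of -0.72 (adjusted p = 0.00236 by edgeR). Its replicate 1 libraries overlapped. Dpu-Mir-8-3p, of the miR-8 and miR-200 family of growth and epithelia, had 381, 349, 321 and 335 against 492, 736, 760 and 647, with 0.80 (adjusted p = 0.00446 by edgeR).

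Lists of families held few calls beyond these, and their counts are to be read against 2.99% higher and 6.41% lower calls over all tested microRNAs with all libraries, and 10.3% and 10.7% without both replicate 1 libraries. No call was made with or without these libraries among the 14 tested arms of the miR-2 seed family with miR-71 (median log2 fold change 0.22 with all libraries), the 10 of the miR-279 family (-0.39), the 5 of the Hox cluster (0.88), the 6 of a gut and fat body list (0.28), the 4 of miR-184 (0.91) or the 2 of the miR-8 family (0.59). The 5 of the Mir-96 family and miR-263 (-0.92) had no call with all libraries and 2 lower calls without both. The 3 muscle arms (2.59) and the 3 of miR-276 and miR-315 (1.51) had none with all libraries and 1 higher call each without both.

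The 12 arms of miR-87 and miR-306 had 3 higher calls and a median of 0.67 with all libraries, and 3 higher and 1 lower calls without both. The 3 of the miR-34 cluster had 1 higher call and a median of 1.63, and 2 higher calls without both. Among 15 neural arms 1 was higher and 1 lower, miR-7-5p and miR-9-3p of locus 36129, which is 6.67% in each direction, and the median was 0.07. Without both libraries 3 neural arms were higher and 1 lower. In the list of the miR-2 seed family with miR-71, miR-71-5p had 2518 to 3198 normalized counts at S21–23 and 3144 to 3610.1 at S24–30. Its log2 fold change was 0.16. In the gut and fat body list, miR-278-3p, a regulator of energy balance in *Drosophila*, had 20.7, 1.05, 0 and 4.16 normalized counts against 33.9, 77.4, 86.4 and 82.8 (log2 fold change 3.13, adjusted p = 0.0405 by edgeR).

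The balance of the arms in each library was taken from its 5p and 3p counts, each plus 0.5, as their log2 ratio, and tested with limma, with a call at a difference of at least 1 and an adjusted p of at most 0.05. A precursor was measured where its arms together had a mean of at least 10 normalized counts at each time-point, so an arm could be absent. Of 119 precursors measured, 3 were called towards 5p (2.52%) and 10 towards 3p (8.4%), together 10.9%. let-7c, called towards 5p, had 0 counts of its 3p arm in all 8 libraries. Its ratio follows its 5p counts and the library depth. The 5p arms of miR-981 and miR-133 were near 0 too. Without both replicate 1 libraries, 5 of the 13 still had the counts to be measured and 3 of them were called. Several calls concerned single copies of miR-981, miR-133 or miR-184 whose counts were divided between loci. After loci of the same name were summed, which was chosen after seeing the data, 7 of 96 names were called. Without both replicate 1 libraries 3 of these 7 could still be measured, miR-6, miR-124 and miR-306, and all 3 were called.

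Only in miR-124 and miR-306, among those 7, did both arms reach a mean of 10 normalized counts at each time-point. For miR-124-3p at S21–23 this rested on replicate 1, with 34 normalized counts. Replicates 2 to 4 had 5.24, 6.41 and 4.16. For miR-124, the ratios were -0.39, 1.83, 1.49 and 1.93 in S21–23 replicates 1 to 4 and -0.57, -2.08, -1.28 and -1.46 in S24–30 replicates 1 to 4. The 5p arm was the more abundant in S21–23 replicates 2 to 4 and the 3p arm in all others. The difference was -2.56 (SE 0.73, adjusted p = 0.0283 by limma), and -3.36 without both replicate 1 libraries (SE 0.8, adjusted p = 0.0115 by limma). miR-124-5p had 26, 19.9, 18.6 and 16.7 normalized counts against 28.2, 24.5, 35.7 and 26.8, and its log2 fold change of 0.35 had an adjusted p of 0.593 in edgeR's test.

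In miR-306 the 3p arm fell while the 5p arm had similar levels. Summed over 3 loci, miR-306-3p had 78.6, 126, 111 and 143 normalized counts at S21–23 and 58.6, 16.6, 21.8 and 25 at S24–30. It fell by 2.06 on the log2 scale (SE 0.36, adjusted p = 0.000127 by edgeR on summed loci), and no single locus passed the threshold with all libraries. miR-306-5p had summed means of 850 ± 132 and 987 ± 224 (SD, n = 4). The log2 ratio of 5p to 3p was 2.91 ± 0.29 at S21–23 and 5.15 ± 1.07 at S24–30 (SD, n = 4), a difference of 2.25 (SE 0.4, adjusted p = 0.000472 by limma). The difference without both replicate 1 libraries was 2.81 (SE 0.38, adjusted p = 1.73e-05 by limma).

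Over all 7 time-points, 6 of the 7 microRNAs called higher had their highest mean at S24–30, as did 80 of all 234 tested. The exception was miR-34-5p, with a mean of 175 at S1–4, 6.61 at S21–23 and 23.1 at S24–30. The miR-87 members and let-7c-5p had their lowest means at S7–11 or S17. miR-12-5p had a mean of 181 at S5–6, 652 at S14 and 928 at S21–23 before its 3238 at S24–30. Of the 15 called lower, 13 had their lowest mean at S24–30. Their highest means were at S1–4 for 3, at S5–6 for 5, at S7–11 for 6 and at S17 for 1. Among all 234 tested, 28, 40, 30 and 25 had their highest mean at these time-points.

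The microRNA called lower with its highest mean at S17 was locus 38476 3p, with 138 at S1–4 and 4904 at S17. miR-92-3p of locus 34108 had 849026 mean normalized counts at S5–6, 56716 at S17 and 3253 at S24–30. The 3p arm of locus 32386 had 9057 at S7–11 and 20.2 at S24–30. As the microRNAs were called by their level at S24–30, a highest or lowest mean there is partly fixed by the call and is no separate result. In the step before it, from S17 to S21–23, 11 microRNAs were called higher and 8 lower by the same thresholds. The S21–23 libraries are part of both steps.

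**Figure D5:**
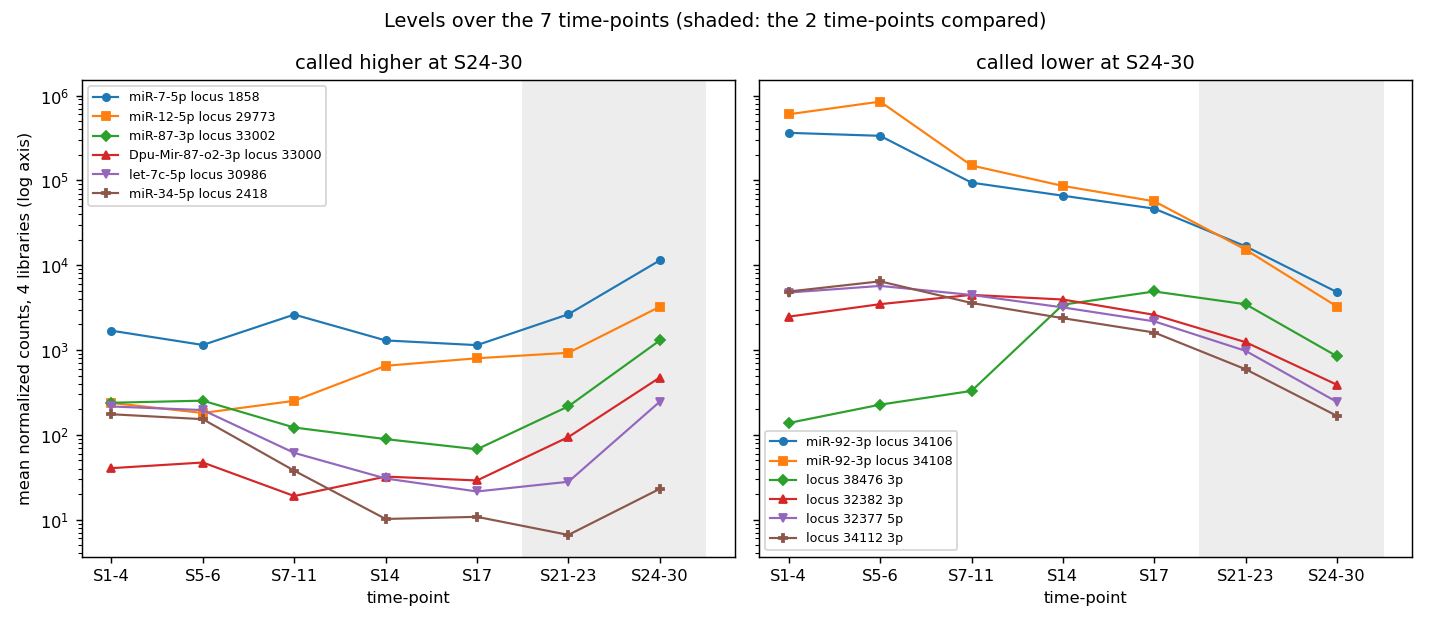
Mean normalized counts of 4 libraries (y axes, logarithmic) at the 7 time-points (x axes) for 6 microRNAs called higher (left) and 6 called lower (right) at S24–30, with the compared time-points shaded. On the left all but miR-34-5p are highest at S24–30, and on the right all but locus 38476 3p are lowest there.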

How the data were processed

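The authors trimmed reads with cutadapt (version 1.18), removed tRNA and rRNA reads, mapped the rest to mature microRNAs predicted with miRDeep2 on the Phaw 5.0 assembly, where Bowtie (version 1.1.1) kept every match with at most 1 mismatch, and quantified them in salmon (version 0.14.1). The deposited values are expected counts, not normalized, and reads of near-identical copies were divided among loci. They were rounded to whole numbers. Levels used DESeq2 (version 1.42.0) size factors. The 234 microRNAs whose mean reached 10 normalized counts at 1 or more of 7 time-points were tested in edgeR (version 4.0.16) after TMM scaling, in 1 model of 28 libraries, with Benjamini-Hochberg adjustment over all 234. Arm ratios were tested in limma (version 3.58.1), in R (version 4.3.3). The scripts were tested on simulated data. Plots were made with matplotlib (version 3.10.9) under Python (version 3.11.15).

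The level, fold and p thresholds for expression are those of the study, and the arm test and its thresholds were set here. The microRNAs and lists were chosen with earlier results of these data known, and Dpu-Mir names were put into lists by hand. Named microRNAs were the 10 largest changes in each direction, the 8 most abundant at each time-point, up to 4 of each list, and precursors with called arm changes. Others named were chosen after their values were seen, among them those called without the replicate 1 libraries. Pairs of replicates differed by more than counting noise (chi-squared over degrees of freedom 13.8 to 228 in 12 pairs). The mRNA libraries were not used here.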

Additional observations from a re-analysis of the deposited data

Results flagged for a closer look

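In each group of 4 libraries, the highest or lowest value was set against the other 3, and those whose gap to the nearest, as a share of the group's range, was above Dixon's 95% critical value are given here. Of 168 groups examined 34 passed, where chance gives about 1 in 20. In 23 of them the library was S21–23 replicate 1, in 8 S24–30 replicate 1, in 2 S24–30 replicate 2 and in 1 S21–23 replicate 4.

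S21–23 replicate 1 was the highest of its group, in normalized counts, for let-7c-5p (84.2), both loci of miR-133-3p (60.3 each, with 0 to 5.2 in the others), miR-277-3p (97.5), miR-1-3p (430.4), miR-7-5p (4915), miR-12-5p (1561), miR-276-3p (6085) and miR-315-5p (3418). The same was true of miR-87-3p at locus 32998 (374) and locus 33002 (550.1), of Dpu-Mir-87-o2-3p (201), and of Dpu-Mir-96-P2-5p (40.3) and Dpu-Mir-96-P2-3p (36.1). It was the lowest of its group for locus 2263 3p (3443), bantam-3p (342) and miR-9-3p of locus 36129 (17.9). In percent of counts it was the highest for muscle microRNAs (0.309%), the miR-2 seed family with miR-71 (8.94%), the miR-34 cluster (0.0698%), miR-276 with miR-315 (5.3%) and previously annotated microRNAs (87.8%), and the lowest for newly annotated ones (12.2%).

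S24–30 replicate 1 was the highest of its group for miR-92-3p at locus 34110 (1588), locus 34106 (7800.4) and locus 34108 (5759), for locus 32386 3p (36), for the near-equal loci 38470 3p and 38476 3p (1439 each), and for the miR-92 family (7.42% of counts). It was the lowest for miR-276 with miR-315 (7.25%). S24–30 replicate 2 was the highest for locus 777 5p (3427) and miR-9-5p of locus 36129 (6371), and S21–23 replicate 4 for isc-miR-2b-3p (2151). The causes were not tested.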

How the results depend on the processing

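The main counts are 7 higher and 15 lower calls. DESeq2 gave 16 and 24, and without both replicate 1 libraries edgeR gave 24 and 25 and DESeq2, an alternative added after seeing the data, 32 and 35. With no filter on low counts 6 were lower. An adjusted p of at most 0.05 alone gave 37 and 56, and summed near-equal copies 8 higher and 19 lower of 202 tested. Summed same-name loci gave 4 higher and 17 lower of 201 tested. In that summed fit miR-12-5p (1.46) and miR-34-5p (1.42), each from a single locus, were below the minimum fold. The summed fit was scaled on its own. miR-10-5p, also a single locus, had a log2 fold change of 0.18 in the main fit and -0.01 in the summed one. A fit of the 8 libraries alone by edgeR's quasi-likelihood test gave 0 and 0; 138 microRNAs had an unadjusted p under 0.05. Leaving out single libraries gave 3 to 24 higher and 7 to 22 lower calls. Deviations of same-numbered libraries had correlations from -0.54 to -0.13. The replicate 1 libraries each deviated towards the other time-point, which makes their value negative. These values therefore cannot decide whether replicate numbers pair the libraries. S21–23 replicate 1 had a Spearman correlation of 0.97 with S24–30 replicate 1 and of 0.9 to 0.91 with the rest of its own group. A fit with replicate number as a block gave 10 and 13 calls. Called arm ratios numbered 13, but 3 at a mean of at least 50 counts, 7 with same-name loci summed and 3 with these summed and without both replicate 1 libraries (both added after seeing the data), 3 without both replicate 1 libraries and 3 to 13 without single libraries; the replicate block gave 11. The miR-92 share was 14.9% to 18.1% at S21–23 and 2.83% to 4.41% at S24–30 without single libraries. Directions turned only for changes near 0. isc-miR-2b-3p was at 0.02 with DESeq2 or RLE scaling, 0.09 without a filter and 0.05 at a mean of at least 50. Locus 2263 3p was at 0.01 without a filter. miR-306-5p was at 0 (locus 36127) and -0.01 (locus 15607) under total counts, and -0.11 to 0.20 without single libraries (-0.11 without S24–30 replicate 2 and -0.02 without S21–23 replicate 1). miR-9-5p of loci 31740 and 31742 was at -0.04 under total counts, and -0.11 (locus 31740) or -0.10 (locus 31742) to 0.13 without single libraries, at or below 0 without S21–23 replicate 1, S21–23 replicate 3 or S24–30 replicate 2. The causes were not tested. Depth limits microRNAs with means of a few counts, such as locus 32315 5p.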
